A study of Mus musculus with 12 samples.

Results

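The genes described here take up carotenoids, cleave them, or handle the retinoids made from them. They are 9 of the 25033 entries of the Ribo-seq table and were chosen by gene symbol: Bco1, Bco2, Scarb1, Cd36, Lrat, Rdh7, Dhrs3, Aldh1a1 and Cyp26a1. All 9 had at least 1 read in an HFD library, and 6 of them had enough reads to be tested. The HFD group was made up of livers of male C57BL/6 mice, 16 weeks old, that had eaten a high-fat diet since week 8. The LYC group had the same sex, strain, age and diet with 0.33% lycopene by weight in the feed. For LYC the treatment label gives the high-fat diet and no lycopene, which is taken from the titles and the study's methods. In Ribo-seq the mRNA stretches shielded by a ribosome survive RNase and are sequenced, and a gene's reads are its ribosome footprints. There were 3 Ribo-seq libraries a group, named HFD1 to HFD3 and LYC1 to LYC3. The labels speak of pooling of the material before library construction, so p-values measure the spread between these libraries, which may be technical in part.

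Carotenoids reach the liver in lipoproteins and enter cells with the help of the scavenger receptors SR-B1, encoded by Scarb1, and CD36. BCO1 cleaves beta-carotene in the middle to retinaldehyde, while BCO2 cuts off centre and accepts lycopene, which carries no provitamin A ring. Retinaldehyde is reduced to retinol and stored as retinyl ester, mostly in hepatic stellate cells, or oxidised to retinoic acid. Retinoic acid binds nuclear receptors, and CYP26 enzymes break it down. Lycopene therefore shares its carriers and a cleavage enzyme with the vitamin A pathway.

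The 6 libraries differed in depth. The steps between RPKM values (reads scaled by gene length and by the library's total) gave totals of 834410 to 4405541 reads in HFD and 311050 to 412116 in LYC. On 1 kb of gene, 1 read was worth 0.227 to 1.2 RPKM in HFD and 2.43 to 3.21 RPKM in LYC. Depth and diet thus run together and cannot be told apart for a gene with few reads. Genes of small non-coding RNA took 2.48% to 3.97% of the reads in HFD and 8.44% to 12.95% in LYC. All 9 hepatocyte markers were read in every library, with a summed RPKM of 35426 to 39857 in HFD and 26755 to 34242 in LYC. Albumin (Alb) set that direction, at 25585 to 29641 RPKM in HFD and 13379 to 22447 in LYC, and without it the other 8 summed to 9658 to 10216 in HFD and 11795 to 13376 in LYC. The 4 adipocyte markers were at 0 in every LYC library, and 3 of them in every HFD library too. The 5 cholangiocyte markers summed to 15.4 to 25.03 RPKM in HFD and 2.89 to 9.25 in LYC, where 3 of them were at 0 throughout. These 3 had 6, 16 and 10 reads over all HFD libraries, so a count of 0 in LYC is near the floor. Most of the sum was Spp1, with means of 16.9 RPKM in HFD and 4.98 in LYC. The part of these markers in the results was not tested.

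Scarb1 was the single gene of the 9 that fell in LYC by the limits used, and none rose. A gene was called where its log2 fold change was beyond 1 in size and limma's moderated test gave p below 0.01, two-sided and before adjustment. The test ran on log2(RPKM / TMM factor + 1), where the TMM factor scales the libraries to each other. Over all 5776 genes tested, 13.3% were called, 6.96% higher and 6.32% lower. A single call among 6 genes is close to that background. With limma none of the 6 was positive with an unadjusted p below 0.05, and edgeR and DESeq2 on the recovered reads also called 0 higher and Scarb1 alone lower. Counted on RPKM alone, the LYC libraries lay wholly below the HFD libraries in 4 of the 9 genes, Bco2, Scarb1, Dhrs3 and Cyp26a1, and wholly above them in 0. The same held for 22.7% (below) and 4.86% (above) of the 15749 genes with a read, and for 27.5% and 9.87%, 37.4% in all, of the genes tested. With 3 libraries against 3, an exact permutation test of a single gene cannot go under p = 0.1. The log2 fold changes of the 6 genes tested had their median at 0.09, and those of all genes tested at -0.10.

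**Figure D1:**
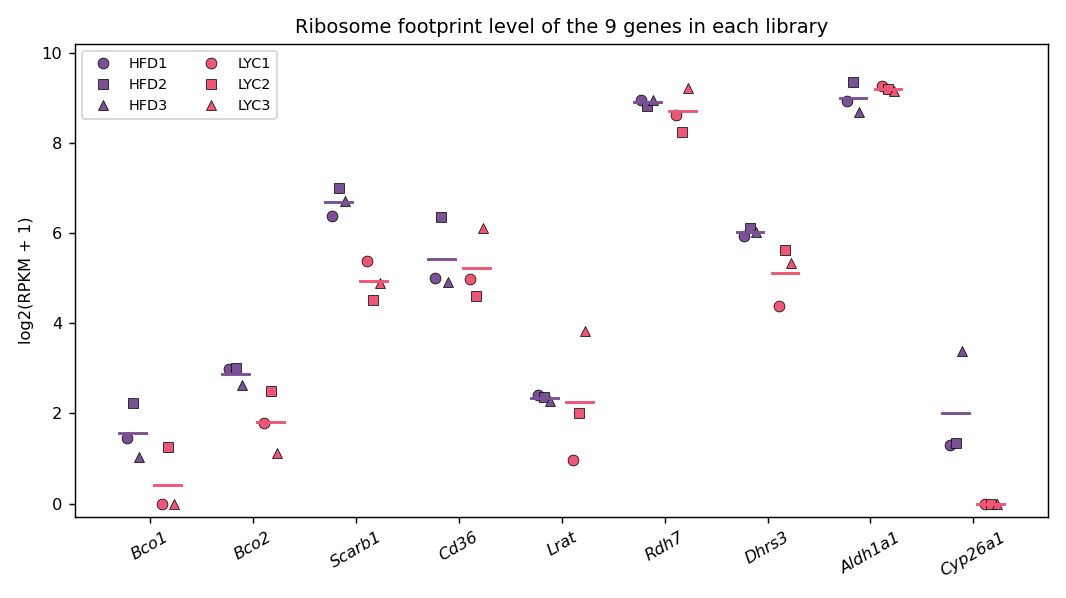
Ribosome footprint level of the 9 genes in each of the 6 libraries, as log2(RPKM + 1) on the vertical axis. Symbols stand for single libraries and the bars for the mean of 3. Scarb1, Bco2, Dhrs3 and Cyp26a1 show no overlap between HFD (purple) and LYC (pink), while Lrat in LYC runs from 0.948 to 13.2 RPKM.

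Of the receptors at the cell surface, Scarb1 (chromosome 5, 125277087 to 125341094, GRCm38) encodes SR-B1, which takes cholesteryl ester from high-density lipoprotein and carotenoids into the cell. Its RPKM was 82.8, 127 and 103 in HFD1, HFD2 and HFD3, from 495, 1229 and 189 reads. In LYC1, LYC2 and LYC3 it was 40.5, 22.0 and 28.8, from 35, 15 and 26 reads. The groups lay well apart, and the 95% counting intervals did not meet either: the lowest HFD bound was 75.7 RPKM and the highest LYC bound was 56.3 RPKM. HFD3, the shallowest HFD library, was above every LYC library. At 834410 reads it was still deeper than all of them (311050 to 412116 reads). Means of 104 ± 22.2 RPKM (HFD) and 30.4 ± 9.35 RPKM (LYC; SD, n = 3) made the HFD level 3.43 times higher. The log2 fold change was -1.48 (standard error 0.32, 95% interval -2.21 to -0.74, limma's p after Benjamini-Hochberg adjustment over all genes = 0.0235). The 6 fits without 1 library gave -1.79 to -1.21, and each called Scarb1. Its adjusted p in these fits (limma) ran from 0.022 to 0.0993 and was above 0.05 without HFD1 (0.0573), HFD2 (0.0748) or HFD3. Of the 9 hepatocyte markers tested, 7 had a positive log2 fold change, and the median of the 9 was 0.54. Among them 2 (Cps1 and Tat) were called higher and 0 lower. The 2 negative ones were Alb (-0.41) and Hnf4a (-0.36). On RPKM alone, LYC lay wholly below HFD in these 2 and wholly above in 4 of the 9. The part of cell content in the Scarb1 difference was not tested. In bulk liver, fewer cells of a type and fewer footprints per cell cannot be told apart.

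Across the 6 libraries, Syngr2 (Pearson's r = 0.994) and Snx18 (0.990) were among the genes tested whose scaled footprint levels followed Scarb1 most closely. The points share their 6 libraries and so their depths, and the values are a description.

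Cd36 (chromosome 5, 17781690 to 17888959), the fatty acid translocase and a class B scavenger receptor like SR-B1, showed no such gap. Its RPKM was 31.3, 81.3 and 29.2 in HFD and 30.6, 23.4 and 68.7 in LYC, in the order of the library numbers. HFD2 and LYC3 stood high, each more than 2 times the other libraries of its group, and the remaining 4 libraries lay between 23.4 and 31.3. The log2 fold change was 0.10 (standard error 0.47, adjusted p = 0.914, limma), with a 95% interval from -0.97 to 1.16. Within HFD its range on the scale of log2(RPKM / TMM factor + 1) was 1.15, wider than in 96.2% of the genes tested. Cd36 is also known from sinusoidal endothelial cells and macrophages. The summed RPKM of 9 endothelial markers was 124, 104 and 89.0 in HFD1, HFD2 and HFD3 and 92.5, 45.0 and 164 in LYC1, LYC2 and LYC3. LYC3 was the highest LYC library in both, whereas in HFD the marker sum was highest in HFD1 and Cd36 in HFD2. For 11 Kupffer cell and macrophage markers it was 194 to 257 in HFD, highest in HFD2, and 150 to 230 in LYC, where LYC2 was highest. Their part in the spread of Cd36 was not tested. The genes most like Cd36 over the 6 libraries were Mpc1 (r = 0.971), Tomm20 (0.969) and Map3k2 (0.968).

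Set against each other within a library, the RPKM of Scarb1 was 2.65, 1.56 and 3.53 times that of Cd36 in HFD and 1.32, 0.939 and 0.419 times in LYC. The ratio needs no scaling between libraries, and the groups did not overlap. It was chosen after the values were seen and carries no test.

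**Figure D2:**
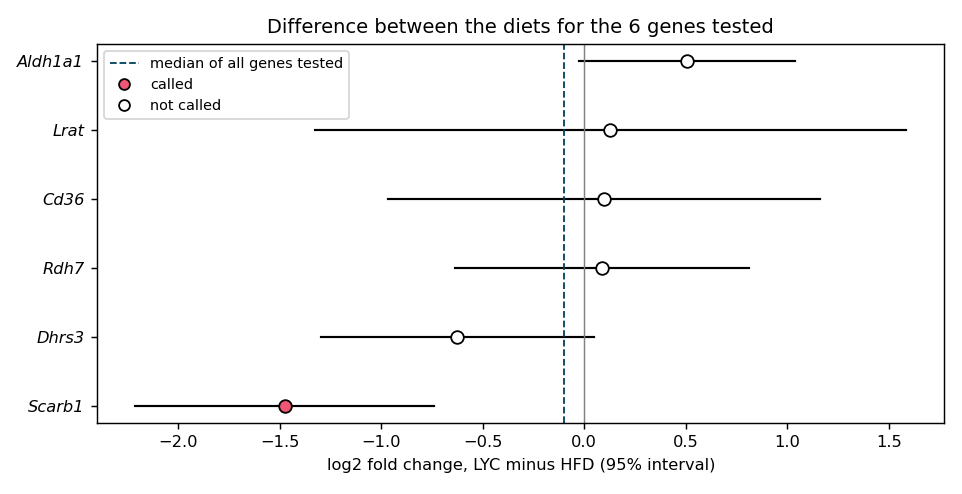
Log2 fold change (LYC minus HFD) of the 6 genes tested, with the 95% interval of limma's test as a line. The filled point, Scarb1 at -1.48, is the gene called, and the dashed line marks the median of all genes tested at -0.10. The intervals of Cd36 and Lrat reach past -0.9 and 1.1 on either side.

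Both cleavage enzymes were read at low levels. Bco2 (chromosome 9, 50533087 to 50555214) encodes the mitochondrial oxygenase that accepts lycopene. Its reads numbered 39, 64 and 9 in HFD against 2, 3 and 1 in LYC, or 6.92, 7.02 and 5.22 against 2.45, 4.66 and 1.17 RPKM. Every LYC value was below every HFD value, yet the counting interval of LYC2 alone ran from 0.962 to 13.6 RPKM. Means were 6.39 ± 1.01 RPKM (HFD) and 2.76 ± 1.77 RPKM (LYC; SD, n = 3; exact permutation test, two-sided, p = 0.1). At the HFD mean, 14.8 reads would have been counted in the LYC libraries together, where 6 were found. The ratio of pooled reads, LYC to HFD, was 0.382 with a 95% interval of 0.137 to 0.858 that covers counting error and not the spread between libraries. Bco2 had too few reads to pass the filter. Fitted among all 15749 genes with a read, its log2 fold change was -0.97 (limma, standard error 0.44, adjusted p = 0.255), and -1.16 from edgeR on the reads (adjusted p = 0.396). The 6 limma fits without 1 library gave -1.23 to -0.61, the smallest without LYC3. Of 3385 untested genes with 33 to 118 reads, the range of Bco1, Bco2 and Cyp26a1, 23.6% had all LYC libraries below all HFD libraries and 3.6% had them above. An annotated antisense gene, Gm47077, overlaps an exon of Bco2 by 161 bases. Whether the authors' counting used strand is not given in the sources used here.

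Bco1 (chromosome 8, 117095851 to 117133720), the enzyme of symmetric cleavage, was covered by 11, 38 and 2 reads in HFD against 0, 1 and 0 in LYC. This made 1.73, 3.71 and 1.03 RPKM in HFD and 0, 1.38 and 0 in LYC. LYC2, with its single read, lay above HFD3, so the groups overlapped (exact permutation test, two-sided, p = 0.2). A single read in LYC was worth 1.04 to 1.38 RPKM, at or above the whole level of HFD3. At the HFD mean of 2.16 ± 1.39 RPKM (SD, n = 3), 5.61 reads were due in LYC. The pooled ratio was 0.140, with a counting interval of 0.00347 to 0.815. Without the filter the log2 fold change was -1.11 (standard error 0.47, adjusted p = 0.229, limma), and -2.34 from edgeR on the reads (adjusted p = 0.358). It passed the limits in the fit without LYC2 (-1.49, unadjusted p = 0.00856, adjusted p = 0.0982), the library that held the read. That fit takes the remaining LYC values as exactly 0 and makes no allowance for counting error, so it is no test of a difference.

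The promoter of Bco1 is shown because it holds a pair of hexamers of the kind that nuclear receptor dimers bind, among them PPAR and RXR. It is given on the plus strand of GRCm38.p6 (RefSeq), chr8:117095800-117095829, with the pair in capitals.
Bco1: cttgggaacTGACCTTTGACCTaacacaca
On the opposite strand the pair reads AGGTCAAAGGTCA, 56 to 44 bases before the start on which the RefSeq window is built. That start lies inside the gene as annotated, and the pair precedes both starts. Windows of 250 bases before to 50 after a start were searched on both strands for the hexamer AGGTCA, its form AGTTCA, and both of these with G as the opening base, taken as same-direction pairs with 1 (DR1), 2 (DR2) or 5 (DR5) bases between them. A DR1 pair was found in 0.224%, DR2 in 0.270% and DR5 in 0.0983% of 32544 windows. RefSeq windows matched 8 of the 9 genes. Scarb1 had no window, so its promoter was not searched. Outside Bco1 and Cyp26a1 the matched windows held no pair. A single AGGTCA, present in 16.3% of all windows, was found in Cd36 and Rdh7. A match describes the letters and not a site in use.

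Lrat (chromosome 3, 82892582 to 82903974) encodes the acyltransferase that esterifies retinol for storage and is known for its expression in stellate cells. Its RPKM was 4.32, 4.12 and 3.81 in HFD, from 63, 97 and 17 reads, and 0.948, 3.01 and 13.2 in LYC, from 2, 5 and 29 reads. HFD was tight, with a ratio of 1.13 between its highest and lowest library, while LYC spread 13.9-fold and reached both under and over it. The counting interval of LYC3, 8.81 to 18.9 RPKM, lay above those of all other libraries. Among the genes tested 96.0% had a smaller range in LYC on the scale of log2(RPKM / TMM factor + 1). The log2 fold change was 0.13 (standard error 0.64, interval -1.33 to 1.58, adjusted p = 0.916, limma), and without LYC3 it was -0.68. Count tests on the reads gave 0.81 with edgeR (adjusted p = 0.355) and 0.77 with DESeq2 (adjusted p = 0.486), and the ratio of pooled reads, LYC to HFD, was 1.45 (95% counting interval 0.984 to 2.08). The summed RPKM of 13 stellate cell markers was 171 to 297 in HFD and 138, 160 and 213 in LYC1, LYC2 and LYC3, in the order of Lrat within LYC. Col3a1 stood at 0.456, 2.31 and 12.6 RPKM in those libraries, and Dcn at 72.7, 86.8 and 82.9. Of the 8 stellate markers tested with limma, 0 were called and 0 had an unadjusted p below 0.05. Their part in the spread of Lrat was not tested.

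**Figure D3:**
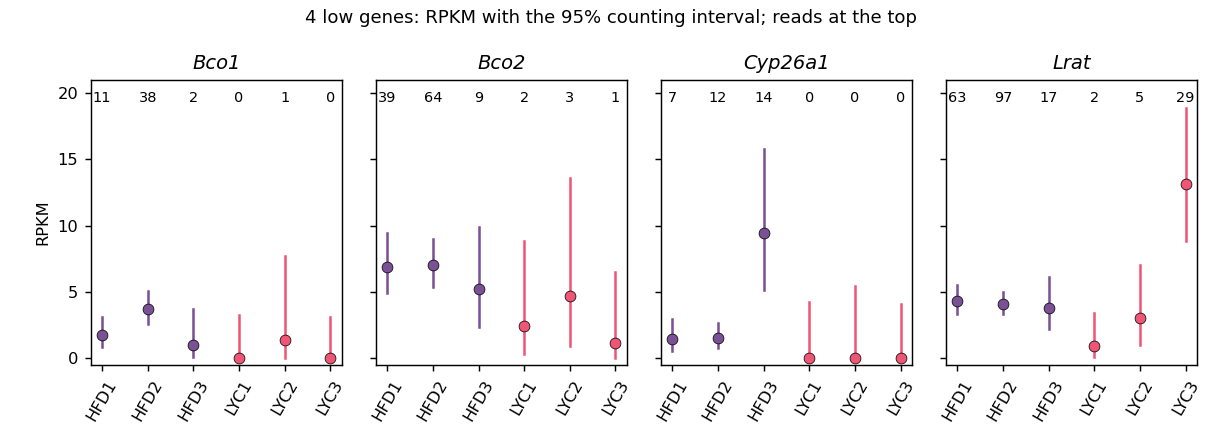
RPKM of Bco1, Bco2, Cyp26a1 and Lrat in each library, with the exact Poisson 95% counting interval as a line or, for a count of 0, a line up to the level of 3 reads, and the number of reads printed at the top. In LYC, Bco1 and Cyp26a1 rest on 1 and 0 reads, and the interval of Lrat in LYC3 (8.81 to 18.9 RPKM) clears those of the other 5 libraries.

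Retinol and retinaldehyde are turned into each other by short-chain dehydrogenases. Rdh7 (chromosome 10, 127884027 to 127889247), a hepatic retinol dehydrogenase, had 493, 449 and 498 RPKM in HFD and 394, 302 and 601 in LYC. These values rest on 2145, 3153 and 663 reads in HFD against 248, 150 and 395 in LYC, which held both the lowest and the highest RPKM. The log2 fold change was 0.09 (standard error 0.32, interval -0.64 to 0.81, adjusted p = 0.882, limma). Rdh7 is a member of a tandem family, and 21.6% of its 28-base windows also occur in other transcripts, 16.99% in Rdh1. Its reads are uncertain to that extent. Rdh1 itself was at 1.98 to 2.77 RPKM in HFD and 0 to 1.87 in LYC.

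Dhrs3 (chromosome 4, 144892534 to 144928209) reduces retinaldehyde back to retinol and is known to be induced by retinoic acid. Its RPKM was 60.6, 68.2 and 64.5 in HFD, from 316, 575 and 103 reads. It was 19.9, 48.7 and 39.3 in LYC, from 15, 29 and 31 reads. All LYC libraries were below all HFD libraries, LYC1 the farthest. Means of 64.4 ± 3.82 RPKM (HFD) and 36.0 ± 14.7 RPKM (LYC; SD, n = 3) put HFD 1.79 times higher (exact permutation test, two-sided, p = 0.1). On the scaled log2 values the difference was -0.62 (standard error 0.29, interval -1.30 to 0.05, unadjusted p = 0.0643, adjusted p = 0.195, limma) and was not called. It was negative in all 6 fits without 1 library, from -0.82 to -0.35.

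Aldh1a1 (chromosome 19, 20492583 to 20643463), the retinaldehyde dehydrogenase that makes retinoic acid, was the most read of the 9 genes by mean RPKM. It stood at 490, 656 and 410 RPKM in HFD and 612, 591 and 567 in LYC, 519 ± 126 against 590 ± 22.9 (SD, n = 3, exact permutation test, two-sided, p = 0.4). The LYC libraries lay within 1.08-fold of each other and inside the HFD range. Divided by the TMM factors, however, all 3 LYC libraries came above the HFD libraries. This held for Aldh1a1 alone among the 5 genes that overlapped before scaling. The factors were 1.03 to 1.26 in HFD and 0.801 to 1.00 in LYC, so the division raises every gene in LYC relative to HFD. The share of all genes so placed after scaling was not computed, and the placement is a description. The log2 fold change was 0.51 (standard error 0.23, interval -0.02 to 1.04, unadjusted p = 0.0591, adjusted p = 0.185, limma), short of a call. The unadjusted p was 0.016 with DESeq2 on the reads (adjusted p = 0.0727) and 0.0244 with limma after a trend on gene length was removed (adjusted p = 0.117), at 0.51 and 0.60. Without LYC2 it was 0.0434 (log2 fold change 0.57, limma, adjusted p = 0.155). Other alternatives gave a larger unadjusted p: 0.0701 with edgeR on the reads, and 0.175 without LYC1 and 0.232 without HFD3 (limma). The log2 fold change was positive in every alternative run, at 0.21 (limma, unadjusted p = 0.451) when libraries were scaled by total reads. Reads from Aldh1a7 can be mixed in, as 6.38% of the 28-base windows of Aldh1a1 also occur there. Aldh1a7 had 68.6 to 90.0 RPKM in HFD and 65.2 to 87.4 in LYC.

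Within a library the RPKM of Dhrs3 was 0.124, 0.104 and 0.157 times that of Aldh1a1 in HFD and 0.0325, 0.0825 and 0.0694 times in LYC, with no overlap. For Rdh7 over Aldh1a1 the ratio was 1.01, 0.684 and 1.22 in HFD against 0.644, 0.512 and 1.06 in LYC, which overlap. These ratios were also chosen after the values were seen and carry no test.

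Cyp26a1 (chromosome 19, 37697738 to 37701536) encodes the hydroxylase that clears retinoic acid, and its transcription is known to respond strongly to retinoic acid. The HFD libraries held 7, 12 and 14 of its reads, and each LYC library 0. The RPKM was 1.44, 1.53 and 9.42 in HFD, so HFD3 stood 6.53 times above HFD1 and its counting interval, 5.15 to 15.8, met neither of theirs. A count of 0 with a limit of 3 reads allows up to 4.27, 5.42 and 4.09 RPKM in LYC1, LYC2 and LYC3, above the level of HFD1 and HFD2. Over the LYC libraries together the limit is 1.51 RPKM, and the HFD mean of 4.13 ± 4.58 (SD, n = 3) is 2.74 times that limit. With the reads of HFD pooled, the HFD level of 2.33 RPKM is 1.54 times the limit. The value of 2.74 rests on HFD3: the levels of HFD1 and HFD2 would have given 2.87 and 3.04 reads in all of LYC, and that of HFD3 18.8. The ratio of pooled reads, LYC to HFD, was 0, with an exact 95% counting interval that reaches 0.843. Fitted without the filter on low reads, the adjusted p was 0.119 with limma and 0.0999 with edgeR. In the same limma fit without HFD3 the limits for a call were passed (log2 fold change -1.25, unadjusted p = 0.000247, adjusted p = 0.0201). That fit takes the LYC values as exactly 0, with no allowance for counting error, whereas the 3-read limit of each LYC library lies above HFD1 and HFD2.

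The start of Cyp26a1 is shown for its DR5 pair, the spacing that retinoic acid receptors prefer. It lies on the plus strand of GRCm38.p6 (RefSeq) at chr19:37697769-37697798, with the pair and the bases between in capitals.
Cyp26a1: ttaaagaTGAACTTTGGGTGAACTaatttg
On the opposite strand it reads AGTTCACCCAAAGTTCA, 32 to 16 bases before the start of the curated transcript and inside the annotated gene, which begins earlier. It is among the 0.0983% of windows noted above. The other genes of retinoic acid breakdown were not tested either. Cyp26b1, from 121 reads in HFD and 7 in LYC, had 4.99, 2.08 and 3.57 RPKM in HFD against 2.16, 0.684 and 1.03 in LYC, which overlap, and Cyp2c39 was below 0.3 in HFD and at 0, 0 and 2.61 in LYC.

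By level, the same genes stood at the top and at the bottom in all 6 libraries. Aldh1a1 and Rdh7 held the upper 2 places, in either order, at the 99.1 and 99.0 percentile of genes with a read in HFD and 98.9 and 98.6 in LYC. Scarb1 had rank 3 in every HFD library and ranks 3, 5 and 5 in LYC1, LYC2 and LYC3, and its percentile went from 95.9 to 89.6. Dhrs3 and Cd36 followed in HFD at 93.8 and 92.2 and were at 90.8 and 91.6 in LYC. In HFD, Dhrs3 lay inside the range of Cd36 and Scarb1 lay above both. In LYC the ranges of all 3 overlapped, as did those of Aldh1a1 and Rdh7 in either group. Lrat, Bco2, Bco1 and Cyp26a1 took the last 4 places throughout, in changing order, all at or below 13.2 RPKM.

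A list of 73 other retinoid and carotenoid genes was looked up beside the 9, and 59 had a read. Of the 34 tested, 0 were called higher and 2 lower, where 6.96% and 6.32% of all genes tested were, so the 2 lower calls are close to the background. Of the 34, 16 had a positive and 18 a negative log2 fold change, and the median was -0.02. With limma, 6 positive genes (17.6%) and 3 negative genes (8.82%) had an unadjusted p below 0.05, beside 15.0% and 14.9% of all genes tested, and edgeR and DESeq2 each called 1 gene higher, Gstp1. The LYC libraries lay wholly below HFD in 16 of the 59 (27.1%) and wholly above in 1, Aox1, beside the 22.7% and 4.86% of all genes with a read.

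In retinoid binding and plasma transport, Stra6l fell, and 3 other genes tested were not called. Fabp5, among these, had a log2 fold change of 1.56 (unadjusted p = 0.0343, adjusted p = 0.137, limma), and its groups overlapped. It was called higher by limma with the replicate block (adjusted p = 0.0455), without HFD1 (adjusted p = 0.0943) and without LYC3 (adjusted p = 0.0463). Stra6l (also Rbpr2) encodes a receptor for retinol-binding protein in liver and gut. It had 36.1, 54.3 and 37.9 RPKM in HFD and 3.16, 8.82 and 14.5 in LYC, with no overlap. Its log2 fold change of -2.06 (limma, standard error 0.43, adjusted p = 0.0204) passed the limits. The 6 fits without 1 library each called it, at -2.51 to -1.61, with an adjusted p above 0.05 without HFD1 (0.0597), HFD2 (0.0737) or HFD3 (0.0799). The plasma carriers were by far the most read. Ttr (transthyretin) was at 4966 to 5337 RPKM in HFD and 3582 to 4866 in LYC, with a log2 fold change of -0.03 after scaling. Rbp4, the retinol-binding protein, was at 1518 to 1956 and 1428 to 2312 RPKM, with a log2 fold change of 0.31.

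Among the enzymes of retinol and retinaldehyde, Retsat passed the limits as lower, and 0 of 10 passed as higher. Retsat, the retinol saturase, had 187, 251 and 165 RPKM in HFD and 58.9, 36.5 and 104 in LYC. Its log2 fold change was -1.39 (standard error 0.38, unadjusted p = 0.00599), but its adjusted p was 0.0515 (limma). Of the 6 fits without 1 library a single one, that without LYC3, called it. On the reads, edgeR (-1.25, adjusted p = 0.0192) and DESeq2 (-1.26, adjusted p = 0.00838) also called it lower. In these settings 392 and 389 of the 5776 genes tested were called lower. Adh1, the main hepatic alcohol dehydrogenase, was at 841 to 1143 RPKM in HFD and 901 to 1552 in LYC (0.46, adjusted p = 0.258). Adh5 was at 111 to 167 and 160 to 255 RPKM, and at a log2 fold change of 0.91 (adjusted p = 0.0449, limma) it fell short of the fold limit.

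The 4 tested genes of retinoic acid synthesis on the list all had positive log2 fold changes, from 0.21 to 0.95 with a median of 0.51. Scaled by total reads, Aldh1a7 (-0.084) and Aox3 (-0.035) turned negative. Limma on all 6 libraries called 0 of the 4, as did edgeR and DESeq2. Of the 4, 2 had an unadjusted p below 0.05 (limma), Aldh8a1 and Aox1, where 15.0% of all genes tested were positive with such a p. Aox1 was called higher by limma without LYC2 (1.13, unadjusted p = 0.00463, adjusted p = 0.0478) and with the length trend removed (1.17, adjusted p = 0.0349). With 4 genes, in a role singled out among those of the list after its values were seen, this is a description. Aox3, an aldehyde oxidase, was at 166 to 216 RPKM in HFD and 127 to 265 in LYC (0.26, adjusted p = 0.601). Aldh8a1, which oxidises 9-cis-retinaldehyde, was at 97.8 to 121 and 108 to 198 RPKM (0.76, adjusted p = 0.089). Of the ester enzymes, Ces1d was at 165 to 182 and 149 to 369 RPKM (0.70, adjusted p = 0.221) and Ces1e at 47.4 to 53.6 and 52.7 to 74.9 RPKM (0.57, adjusted p = 0.185), both carboxylesterases that hydrolyse retinyl ester. In the fit without LYC2, Ces1d was called higher (1.07, unadjusted p = 0.00316, adjusted p = 0.0387, limma).

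Of the nuclear receptors and of carotenoid and lipoprotein transport, limma on all 6 libraries called none of the list, while edgeR and DESeq2, and limma without LYC3, called Gstp1 higher. Rxra, the common partner of retinoic acid receptors, was at 64.7 to 89.7 RPKM in HFD and 33.5 to 53.4 in LYC, without overlap (log2 fold change -0.57, adjusted p = 0.194, limma). Rara was at 5.98 to 12.5 and 4.68 to 10.4 RPKM (-0.02, adjusted p = 0.973). In carotenoid and lipoprotein transport, Apoe, a ligand for lipoprotein uptake, was at 9902 to 16309 RPKM in HFD and 4911 to 7215 in LYC (-0.74, adjusted p = 0.21). Gstp1, a glutathione transferase of the family that holds a carotenoid-binding protein, was at 568 to 1078 and 851 to 2407 RPKM (1.25, unadjusted p = 0.0273, adjusted p = 0.121, limma). On the reads it was 1.30 with edgeR (unadjusted p = 0.00475, adjusted p = 0.0355) and 1.31 with DESeq2 (0.00437 and 0.028), settings in which 495 and 509 of the 5776 genes tested were called higher.

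**Figure D4:**
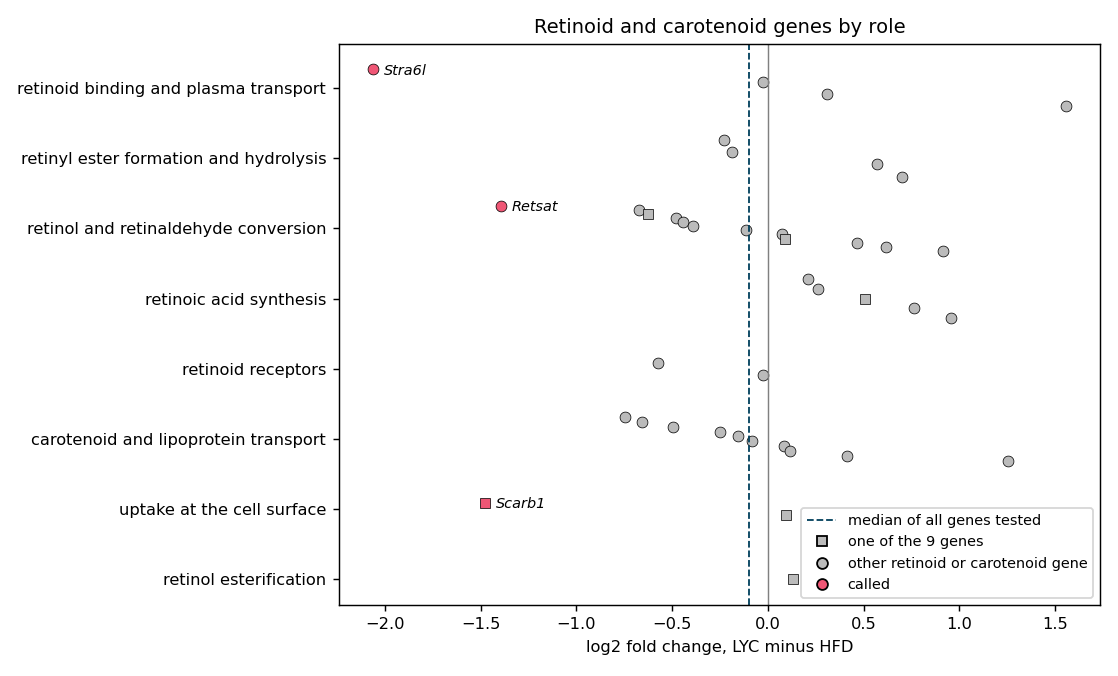
Log2 fold change (LYC minus HFD, horizontal axis) of every tested gene by role, squares for the 9 genes and circles for the other retinoid and carotenoid genes. The 3 coloured points are Stra6l (-2.06), Scarb1 (-1.48) and Retsat (-1.39), all lower in LYC. The genes of retinoic acid synthesis all lie to the right of 0, which held for 2 of the 4 circles when libraries were scaled by total reads.

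Read counts for 6 further libraries, labelled RNA-seq, were deposited beside the Ribo-seq values. They do not give an independent measure. Among genes with 5 to 50 reads, the best matching library held exactly the same number as the Ribo-seq library for 37.1% to 50.2% of genes in HFD and 80.1% to 81.3% in LYC, and the other 30 pairs reached at most 5.30%. In HFD the numbers were crossed: Ribo-seq HFD1 matched the library labelled RNA-seq HFD3, HFD2 matched HFD1, and HFD3 matched HFD2. With edgeR's quasi-likelihood test on these counts, where 16.6% of all genes were called, 7 of the 9 genes could be tested and Scarb1 alone was called (log2 fold change -1.42, adjusted p = 0.0043). This value adds nothing to the Ribo-seq result, since it rests largely on the same reads, and translation relative to mRNA was not analysed here.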

How the data were processed

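Mouse liver was profiled by Ribo-seq with cycloheximide, RNase I, a sucrose cushion and rRNA depletion, in 3 HFD and 3 LYC libraries. The authors cleaned reads by cutadapt and bowtie2, used STAR for alignment (GRCm38/mm10) and FANSE2 for gene quantification, and deposited RPKM values for the Ribo-seq libraries. For the libraries labelled RNA-seq they deposited read counts and RPKM values. Versions, annotation and strand use are not given in the sources used here.

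Of 25033 entries 4 shared a name and were left out, and 26 had names turned into dates. Reads were recovered as whole multiples of the RPKM step, within 0.03 reads, for all but 16 of the 15749 genes above 0, with the gene length of the second table for 11182 and a fitted length for 4551. Counts had been planned for. As the unit is RPKM, limma's moderated test with a trend was run on log2(RPKM / TMM factor + 1), after edgeR's filterByExpr on recovered reads, and p-values were adjusted by Benjamini-Hochberg over 5776 genes. The pseudocount of 1 understates changes of low genes. Count tests were alternatives, and limma, edgeR and DESeq2 were tested on simulated data. The outcome of those runs is not reported here, and no result rests on it. Intervals on reads are exact Poisson 95% intervals. They and the limit of 3 reads for a count of 0 cover counting error only, and reads carry no molecular identifiers.

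The 9 genes, the list of 73 genes and the marker lists were chosen with earlier results of these data known. Named from the list were the genes called and the 2 with the highest mean RPKM in each role. For Scarb1 and Cd36 the 3 genes most like them were taken, not all of which are reported here, while Bco2 and Cyp26a1 could not be treated so. Rdh1, Aldh1a7, Aox1, Fabp5, Lipe, Dhrs9, Alb, Hnf4a, Cps1, Tat, Col3a1, Dcn and Spp1 were named after their values were seen. Gene coordinates are from RefSeq (GRCm38.p6), and shared windows and overlaps from GENCODE. Alternatives were other scalings, pseudocounts, filters, thresholds and count tests, a replicate block, a length correction and leaving out each library. Fits used limma 3.58.1, edgeR 4.0.16 and DESeq2 1.42.0 in R 4.3.3. Python 3.11.15 ran the other steps (scipy 1.17.1, pandas 2.3.3, numpy 2.4.6), and matplotlib 3.10.9 drew the plots.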

Additional observations from a re-analysis of the deposited data

How the results depend on the processing

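Scarb1 kept its direction and its call in 12 of 13 alternative settings, with a log2 fold change of -1.77 to -1.37 and an adjusted p of 0.000345 to 0.0341 (limma, edgeR or DESeq2 with Benjamini-Hochberg adjustment), and in the 6 fits without 1 library. With p below 0.001 it was not called, which left 0 of the 9 genes and 0 of the 73 called lower. Scaling by total reads instead of TMM factors moved the median of all genes from -0.10 to -0.36 and the calls from 402 higher and 365 lower to 234 and 651. It reversed Cd36 (-0.19), Lrat (-0.082) and Rdh7 (-0.21), and no filter on low genes reversed Cd36 (-0.056) and Rdh7 (-0.068). All genes called were then 356 higher and 877 lower. With p below 0.001 they were 196 and 103. None of these 3 genes was called in any setting, and the cause of the reversals was not tested.

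Without 1 library in turn, Cd36 ranged from -0.36 to 0.47, Lrat from -0.68 to 0.74 in 3 fits, Rdh7 from -0.19 to 0.38, Retsat from -1.78 to -0.97, Bco1 without the filter from -1.49 to -0.82, Bco2 likewise from -1.23 to -0.61 and Cyp26a1 from -2.30 to -1.25. The genes of the list called lower ranged from 1 to 2 and those called higher from 0 to 3 in these fits. Without LYC3 the higher ones were Adh5, Fabp5 and Gstp1, 3 of the 41 tested, beside 575 of all 7250 genes tested, a share close to theirs. Without HFD1 it was Fabp5 (2.06), 1 of 34 tested, beside 308 of all 4906. Without LYC1 it was Lipe (1.52), 1 of 40, beside 403 of all 7287. Aox1 (1.13) and Ces1d (1.07) were called without LYC2, 2 of 40, beside 463 of all 7215. These calls do not exceed the background either. Of the list, 1 gene was called higher with edgeR (Gstp1), DESeq2 (Gstp1), the replicate block (Fabp5), the length trend removed (Aox1) and an adjusted p below 0.05 without a fold limit (Adh5), against 0 in the fit described. Each is 1 of 34 tested, beside 495, 509, 397, 414 and 375 of all 5776 genes tested in these settings, so single calls do not exceed the background. The last of these settings left 1 called lower, Stra6l, since the adjusted p of Retsat was 0.0515. With no filter and with at least 30 reads, 3 of 59 and 3 of 52 were called lower, as Dhrs9 was added (-1.46 and -1.44). Of all genes tested, 877 of 15749 and 740 of 10165 were called lower in these settings. Dhrs9 had 35 reads in HFD and 0 in LYC, and these fits take its LYC values as exactly 0, with no allowance for counting error.

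Equal replicate numbers did not pair the libraries: the correlations of their deviations were 0.108, 0.029 and 0.009. With the replicate block 1 of the 9 genes was called lower, as before, and over all genes 397 were called higher and 342 lower. In LYC, 1 read was worth over 1 RPKM on the low genes, which limits Bco1, Bco2 and Cyp26a1 most.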
